A study of Mus musculus with 5 samples.

Results

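The oxidative phosphorylation genes were taken by symbol, as every mouse gene whose annotated name begins with Ndufa, Ndufb, Ndufc, Ndufs, Ndufv, Sdh, Uqcr, Cox4 to Cox8 or Atp5 and that has a probe set naming it alone. This gave 94 of the 18194 genes with such a probe set. Where a gene had several, the probe set brightest on average, with the 3 groups weighted equally, was read. The 94 genes comprise 36 of complex I, 4 of complex II, 8 of complex III, 17 of complex IV and 17 of complex V (ATP synthase), and 12 assembly factors whose names carry the same prefixes (Ndufaf1 to Ndufaf8 and Sdhaf1 to Sdhaf4). RNA came from mouse B9 cells, derived from cutaneous squamous cell carcinoma and of the HRAS-Q61L genotype, which all groups share. The cells had been kept for 17 h with 1 µM vemurafenib (PLX4032; 2 arrays), with 1 µM PLX7904 (2 arrays) or with the vehicle dimethyl sulfoxide (DMSO; 1 array). Vemurafenib inhibits mutant BRAF and is known to raise RAF signalling in cells with active RAS, and PLX7904 belongs to the so-called paradox breakers, designed to spare the cells that effect. The control is labelled 0.2% DMSO, whereas the stated 2.4 µL of stock in 12 mL of medium would bring 0.02%, and if the cultures differed in this way, vehicle and compound cannot be told apart. All arrays come from 1 cell line, and the labels call the arrays of a group biological replicates.

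Oxidative phosphorylation passes electrons from NADH (through complex I) and succinate (through complex II) to coenzyme Q, complex III and cytochrome c, and on to oxygen at complex IV. The pumped protons drive ATP synthesis at complex V. Most subunits are encoded in the nucleus, a minority in mitochondrial DNA, and dedicated factors insert cofactors and join the modules. Nuclear subunit genes are known for promoters bound by NRF1, GABP, YY1 and the oestrogen-related receptors. Tumour cells differ in how far they rely on this pathway beside glycolysis.

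The values are MAS5 signals, on a linear scale. Of the 94 genes, 88 reached a mean of 47.4, which is the median over every deposited value, and were tested among 10853 genes. Differences are given on the scale log2(signal + 3.34) with standard errors (SE) or 95% intervals from a limma fit to the 5 arrays, which understates changes of dim genes. A gene was called at a Benjamini-Hochberg adjusted p under 0.05 over all 10853 genes. With 2 residual degrees of freedom and a single DMSO array, whose variance is borrowed from the treated groups, p-values measure only the spread between these arrays. All 10 keratinocyte and epithelial markers examined, among them Krt5, Krt14 and Trp63, were past the filter. Their summed signal moved with the groups, at 127890 and 125490 in vemurafenib, 106430 and 103750 in PLX7904 and 97723 in DMSO. The single markers did not all move this way. Krt5 (10583 and 10654 in vemurafenib, 12250 in DMSO) and Cdh1 (4571.5 and 4130.8, 5023) were below DMSO on both vemurafenib arrays. The others were above it on both, among them Lama3 (12717 and 12149 in vemurafenib, 5284.7 in DMSO). Of 6 fibroblast markers 1 was past the filter, Pdgfra, and their sum was 389.5 and 360.3 in vemurafenib, 192.6 and 229.6 in PLX7904 and 160.0 in DMSO. Of the immune markers 2 of 5 were past it (summed signal 239.4 to 272.8 per array) and of the endothelial markers 1 of 4 (48.5 to 202.8), and no marker was listed at 0. The part of these shifts in the results below was not tested. In RNA of a whole culture, a change in the share of cells with a transcript and a change per cell cannot be told apart.

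In vemurafenib against DMSO the 76 tested subunit genes had a median log2 difference of 0.03 and the 12 assembly factors one of -0.16. The classes also differed in signal. Each gene was therefore also set against the median of all genes in its range of signal, 1 of 4. The class medians were then -0.10 for the assembly factors, -0.06 for complex I and -0.03 for complex II. They were 0.00 for complex III, 0.02 for complex IV and -0.04 for complex V. Atp5c1, the gamma subunit that forms the rotating shaft of ATP synthase, rose, and Ndufaf2, an assembly factor of complex I, fell. These were the only calls among the 88 members, 1 higher and 1 lower, where 5.44% of all tested genes were called higher and 5.21% lower. The median log2 difference of the 88 members was 0.01, beside -0.05 over all tested genes. The members ranged from -0.55 (Sdhaf3) to 0.28 (Atp5c1), and 83 of them lay within 0.25 of 0. For 80 of 88 members (90.9%) the whole 95% interval lay within 1.5-fold in either direction, against 53.4% of all tested genes. The members were bright: 59 of the 88 members were in the brightest 10% of tested genes. Of all genes in that range 90.3% had such an interval, and so did 59 of the 59 members in it (100%). The median of all genes in that range was 0.10 in vemurafenib against DMSO, and the 59 members had a median of 0.08. In it 16.5% of all genes were called higher and 3.41% lower, beside 1 (1.69%) and 0 of the 59 members.

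**Figure D1:**
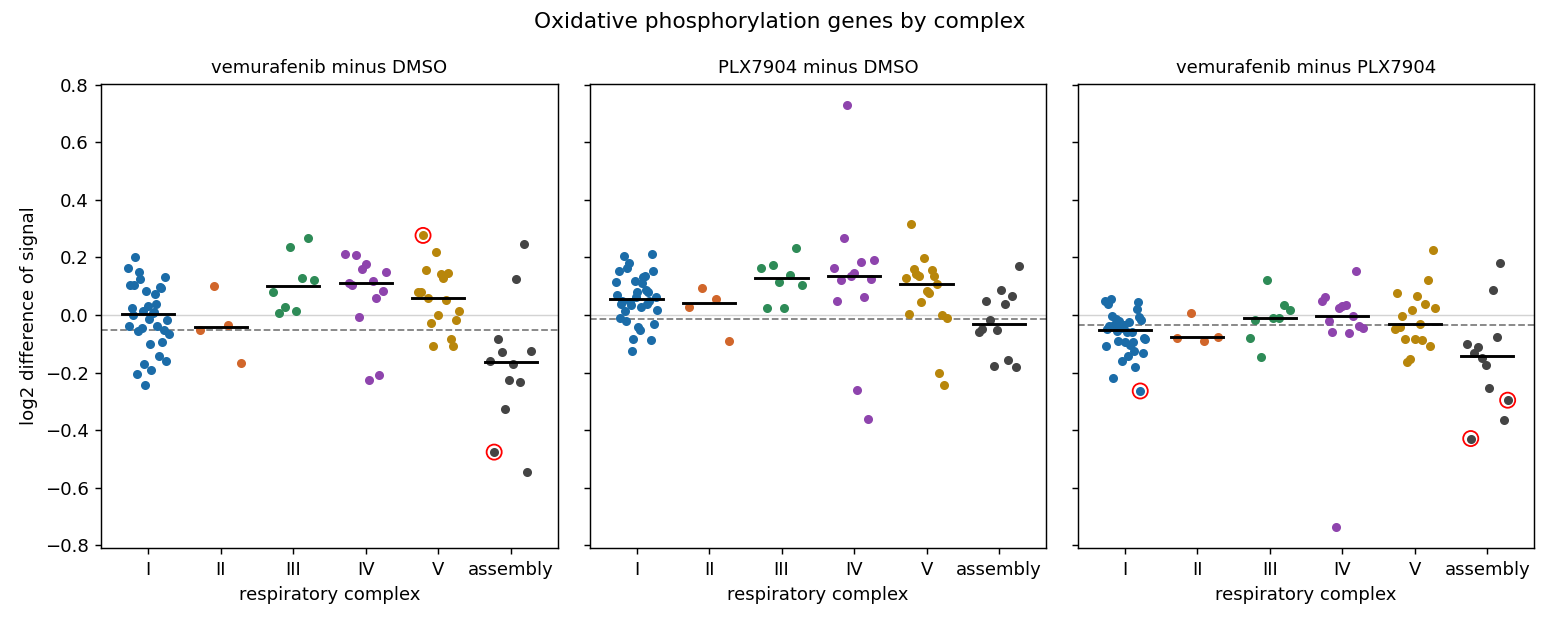
Log2 difference of signal (y axis) for each tested gene (points) by respiratory complex (x axis; assembly, the 12 assembly factors) in 3 panels, for vemurafenib minus DMSO (left), PLX7904 minus DMSO (middle) and the 2 compounds (vemurafenib minus PLX7904, right). Black bars are medians, the dashed line is the median of all 10853 tested genes and red circles mark called genes; the assembly factors have a median of -0.16 in the left panel and -0.14 in the right one.

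By class the members lay in different places, with no test of a difference between classes. Both vemurafenib arrays were above the DMSO array for 41 members and below it for 32, where the same held for 34.2% and 47.7% of all tested genes. Among all genes in the brightest 10% of signal it held for 64.3% and 23.5%, and among the 59 members there for 61% and 18.6%. Complex III had 5 of 8 genes above and 0 below (median 0.10), complex IV 9 of 13 above and 1 below (median 0.11) and complex V 11 of 17 above and 4 below (median 0.06). Complex I was divided, with 13 of 34 above and 14 below (median 0.00). Of the 12 assembly factors 2 were above and 10 below (median -0.16). These counts depended on the scaling of the arrays, and the balance turned round. Under quantile normalization 24 members were above and 50 below (all genes 38.2% and 42.3%), under cyclic loess 22 and 52 (38.5% and 41.7%) and under median centring 57 and 18 (42.6% and 38.3%). Complex V had 4 above and 10 below under both quantile normalization and cyclic loess, complex IV 4 and 4 under both, and complex I 8 and 22 under quantile normalization. The quantile medians were -0.06 for complex I, 0.04 for complex III, -0.02 for complex IV and -0.06 for complex V. The assembly factors had a median of -0.15 with 2 above and 9 below under quantile normalization, and of -0.10 with 2 above and 6 below under median centring.

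**Figure D2:**
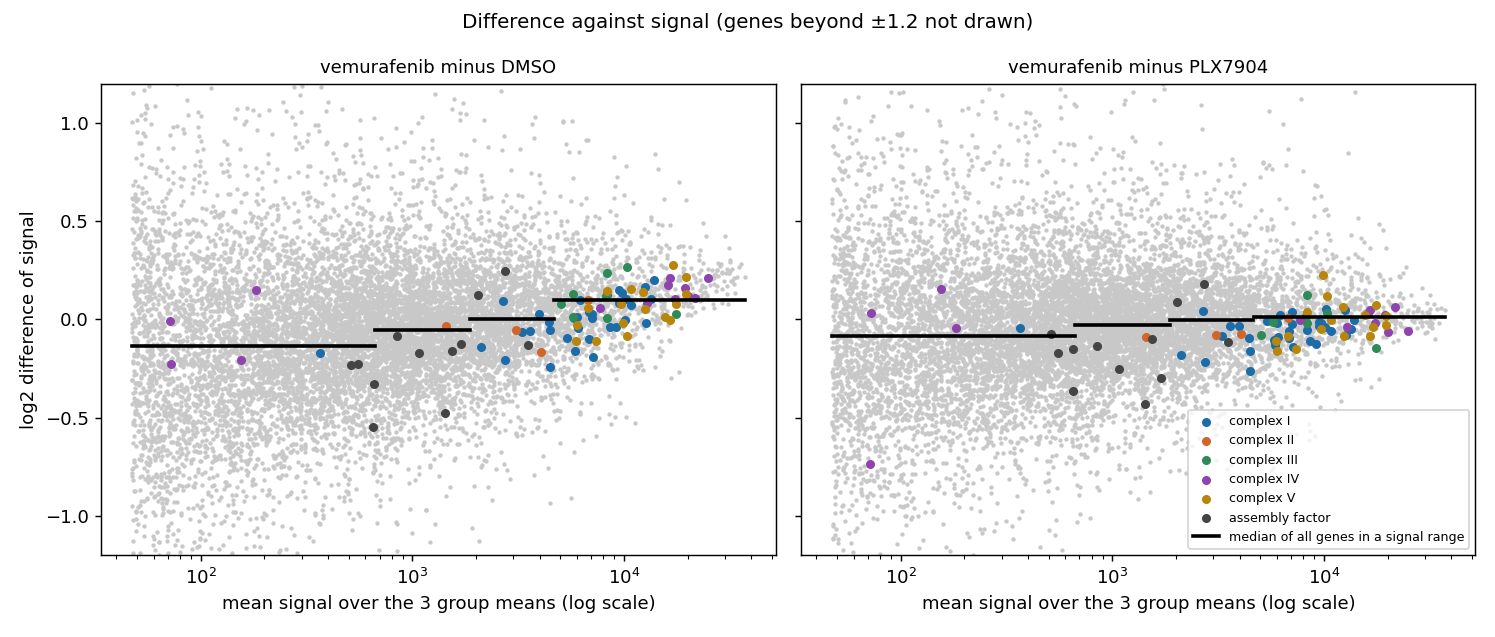
Log2 difference (y axis) against the mean signal over the 3 group means (x axis, log scale) for all tested genes (grey) and the oxidative phosphorylation genes (coloured by class), in vemurafenib minus DMSO (left) and vemurafenib minus PLX7904 (right). Black lines are the medians of all genes in 4 ranges of signal; in vemurafenib minus DMSO they run between -0.13 for the dimmest range and 0.10 for the brightest 10%.

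Most complex I subunits stayed within a narrow band. Of the 34 tested genes none was called against DMSO by limma, with 2 higher and 2 lower at an unadjusted p under 0.05 in vemurafenib, beside 1246 higher and 1565 lower among all 10853 genes. On the probe sets used, their log2 differences in vemurafenib against DMSO ran from -0.24 to 0.20. At the upper end was Ndufa4, named for complex I although its protein has since been assigned to complex IV. It had signals of 14265 and 14788 in vemurafenib, 14501 and 14624 in PLX7904 and 12620 in DMSO. Every treated array was above the DMSO array, and neither difference from DMSO was called (0.20 ± 0.07 SE, adjusted p 0.0757 by limma, in vemurafenib against DMSO). At the lower end was Ndufb10, a subunit of the membrane arm, with 4151.6 and 4016.2 in vemurafenib, 4790.5 and 4335.3 in PLX7904 and 4829.9 in DMSO. Its vemurafenib arrays were the 2 lowest of the 5, with a log2 difference of -0.24 ± 0.09 SE from DMSO (adjusted p 0.119 by limma).

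The iron-sulphur subunit Ndufs7, which carries the last cluster before coenzyme Q, separated the compounds. It read 4123.2 and 4128.8 in vemurafenib, 4914.5 and 4997.1 in PLX7904 and 4282.0 in DMSO. The PLX7904 arrays were the highest and did not overlap the others. Ndufs7 was called in vemurafenib against PLX7904 (log2 difference -0.26 ± 0.07 SE, 1.201-fold lower, adjusted p 0.0236 by limma), and in neither contrast with DMSO. Its second probe set gave -0.12 for the same contrast. Over 17 alternative settings the adjusted p ran from 0.016 to 0.334 and 11 passed. It missed the threshold with the mean of both probe sets (0.107), without the suffixed probe set (0.334), without the eBayes trend (0.155), without vemurafenib replicate 1 (0.144), without vemurafenib replicate 2 (0.12) and without PLX7904 replicate 2 (0.05).

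More broadly, 17 of the 34 complex I genes had both vemurafenib arrays below both PLX7904 arrays and 2 had both above, where 32.2% of all tested genes were wholly lower and 23.8% wholly higher. The class median was -0.05, beside -0.04 over all genes. Ndufa5 (2563.7 and 2372.9 in vemurafenib, 3048.9 and 2703.6 in PLX7904) and Ndufs1, the largest electron-transfer subunit (1968.0 and 1937.7 in vemurafenib, 2210.6 and 2213.7 in PLX7904), were among the 17. Neither was called (adjusted p 0.125 and 0.157 by limma). The count was 24 of 34 under quantile normalization, 23 under cyclic loess and 11 under median centring, beside 29.8%, 29.1% and 27.0% of all genes. The extreme at the other end, Ndufa3, had a log2 difference of 0.05 between the compounds. A second Ndufa5 probe set read 1808.1 and 1880.1 in vemurafenib, 2452.6 and 2408.6 in PLX7904 and 2378.1 in DMSO. It gave -0.40 between the compounds and -0.37 in vemurafenib against DMSO. Both are lower than any complex I value on the probe sets used.

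Complex II, the succinate dehydrogenase that links the citric acid cycle to the chain, has 4 subunits and all were tested. Sdha, the flavoprotein, had signals of 2980.5 and 2991.8 in vemurafenib, 3041.5 and 3270.3 in PLX7904 and 3094.6 in DMSO. Sdhb, the iron-sulphur subunit, had 7057.6 and 6813.5 in vemurafenib, 7159.9 and 6655.3 in PLX7904 and 6470.1 in DMSO. Among these, Sdhb was above DMSO on every treated array, and Sdha was below it on the vemurafenib arrays and on both sides of it on the PLX7904 arrays. The membrane anchor Sdhc read 1389.4 and 1416.7 in vemurafenib, 1428.9 and 1561.2 in PLX7904 and 1436.2 in DMSO. The other anchor, Sdhd, read 3951.0 and 3685.2 in vemurafenib, 4109.2 and 3940.0 in PLX7904 and 4284.9 in DMSO. Sdhd was below DMSO on all 4 treated arrays, and none of the 4 subunits was called in any contrast. In vemurafenib against DMSO the log2 differences were -0.05 (95% interval -0.25 to 0.15) for Sdha, 0.10 (-0.08 to 0.28) for Sdhb, -0.03 (-0.27 to 0.20) for Sdhc and -0.17 (-0.36 to 0.03) for Sdhd. In vemurafenib against PLX7904 they lay between -0.09 and 0.01. Further probe sets past the filter gave other values. That of Sdha gave -0.24 against DMSO and -0.23 between the compounds, its vemurafenib arrays (1836.9 and 1952.9) below all others. That of Sdhd gave -0.56 and -0.17 in the same contrasts, and that of Sdhc -0.10 and 0.01.

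Complex III held the member closest to the threshold on the higher side. Uqcrh, the hinge protein at which cytochrome c docks, had signals of 11292 and 10791 in vemurafenib, 11256 and 10338 in PLX7904 and 9169 in DMSO. The DMSO array was the lowest for this gene and the 2 compounds overlapped. The log2 difference from DMSO was 0.27 ± 0.08 SE in vemurafenib (adjusted p 0.0524 by limma) and 0.23 ± 0.08 SE in PLX7904 (adjusted p 0.542). The second probe set of Uqcrh gave 0.31 in both. Uqcrh passed in 7 of 16 alternative settings in vemurafenib against DMSO. These included leaving out PLX7904 replicate 1 (adjusted p 0.0199) or PLX7904 replicate 2 (0.0192), which do not enter this difference and change only its variance.

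Uqcrc1, a core subunit of the same complex, read 8908.8 and 9060.5 in vemurafenib, 8529.4 and 7985.8 in PLX7904 and 7624.1 in DMSO. Its vemurafenib arrays were the highest and its DMSO array the lowest, with no call (0.24 ± 0.07 SE in vemurafenib against DMSO, adjusted p 0.0728 by limma; 0.12 ± 0.06 SE in vemurafenib against PLX7904, adjusted p 0.23). The lowest members of the class were Uqcr11 against DMSO (0.01) and Uqcrb against PLX7904 (-0.15), a small subunit with 16356 and 18071 in vemurafenib and 18915 and 19126 in PLX7904. The Rieske protein gene Uqcrfs1 had log2 differences of 0.13 in vemurafenib and 0.14 in PLX7904, both against DMSO and not called.

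For complex IV, cytochrome c oxidase, the 9 ubiquitous subunits with bright probe sets differed little between groups. Cox4i1, the first nuclear subunit to join the catalytic core, read 18085 and 16867 in vemurafenib, 17320 and 16461 in PLX7904 and 15071 in DMSO. Cox6a1 read 26505 and 24963 in vemurafenib, 28582 and 25108 in PLX7904 and 22260 in DMSO. On the probe sets used, all treated arrays were above the DMSO array in both genes and the 2 compounds overlapped. Neither was called in vemurafenib against DMSO (0.21 ± 0.07 SE, adjusted p 0.0824, for Cox4i1; 0.21 ± 0.08 SE, adjusted p 0.129, for Cox6a1; both by limma). A second bright Cox6a1 probe set read 13380 and 12606 in vemurafenib, 12977 and 13144 in PLX7904 and 13244 in DMSO. It gave -0.03 in vemurafenib and -0.02 in PLX7904 against DMSO. Cox5a, Cox5b, Cox6b1, Cox6c, Cox7a2 and Cox8a had log2 differences between 0.08 and 0.18 in vemurafenib against DMSO, and Cox7a2l, which helps join complexes III and IV, 0.06. Between the compounds these 9 genes lay between -0.06 and 0.06.

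The paralogues with restricted expression, chiefly of muscle, testis or hypoxic tissue, were dim. Cox4i2, Cox6b2, Cox7b2, Cox8b and Ndufa4l2 stayed below the filter in the mean over groups, with no array above 61.6. Of 6 muscle markers examined 3 were past the filter, with a summed signal between 230.9 and 308.3 per array. Cox6a2, the heart and muscle form, passed the filter with 49.7 and 65.8 in vemurafenib, 77.0 and 123.5 in PLX7904 and 57.5 in DMSO. Both PLX7904 arrays were above the rest, but they differed from each other by more than the other 3 arrays did. The log2 difference of Cox6a2 in vemurafenib against PLX7904 was -0.74 with a 95% interval of -1.53 to 0.05, and it was not called. Cox7a1 (65.0 and 73.2 in vemurafenib, 75.4 and 60.0 in PLX7904, 81.3 in DMSO) and the testis form Cox8c (180.6 and 192.8 in vemurafenib, 198.0 and 187.1 in PLX7904, 168.0 in DMSO) also passed the filter without a call. For Cox7a1 the DMSO array was the highest and for Cox8c it was the lowest. No detection calls were used, so it is not known whether such signals exceed background. Cox7c had only probe sets of this dim kind (128.1 and 179.8 in vemurafenib, 155.9 and 118.7 in PLX7904, 175.7 in DMSO), its PLX7904 arrays below DMSO and its vemurafenib arrays on both sides.

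Of complex V, Atp5c1 read 17811 and 18004 in vemurafenib, 19120 and 17730 in PLX7904 and 14784 in DMSO. All treated arrays were above the DMSO array, and the compounds overlapped. The gene was called higher in vemurafenib against DMSO (0.28 ± 0.07 SE, 1.21-fold, adjusted p 0.0279 by limma) and not in PLX7904 against DMSO (0.32 ± 0.07 SE, adjusted p 0.332). The 2 contrasts share the DMSO array, and the direct difference between the compounds was -0.04 ± 0.06 SE (adjusted p 0.695). A second Atp5c1 probe set, with signals between 77.99 and 126.5, gave -0.46 in vemurafenib against DMSO. The call held in 8 of 16 alternative settings (adjusted p from 0.00894 to 0.662). It was lost under quantile normalization (log2 difference 0.13, adjusted p 0.164) and cyclic loess (0.14, 0.188), and without vemurafenib replicate 1 (0.0681) or vemurafenib replicate 2 (0.0802).

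**Figure D3:**
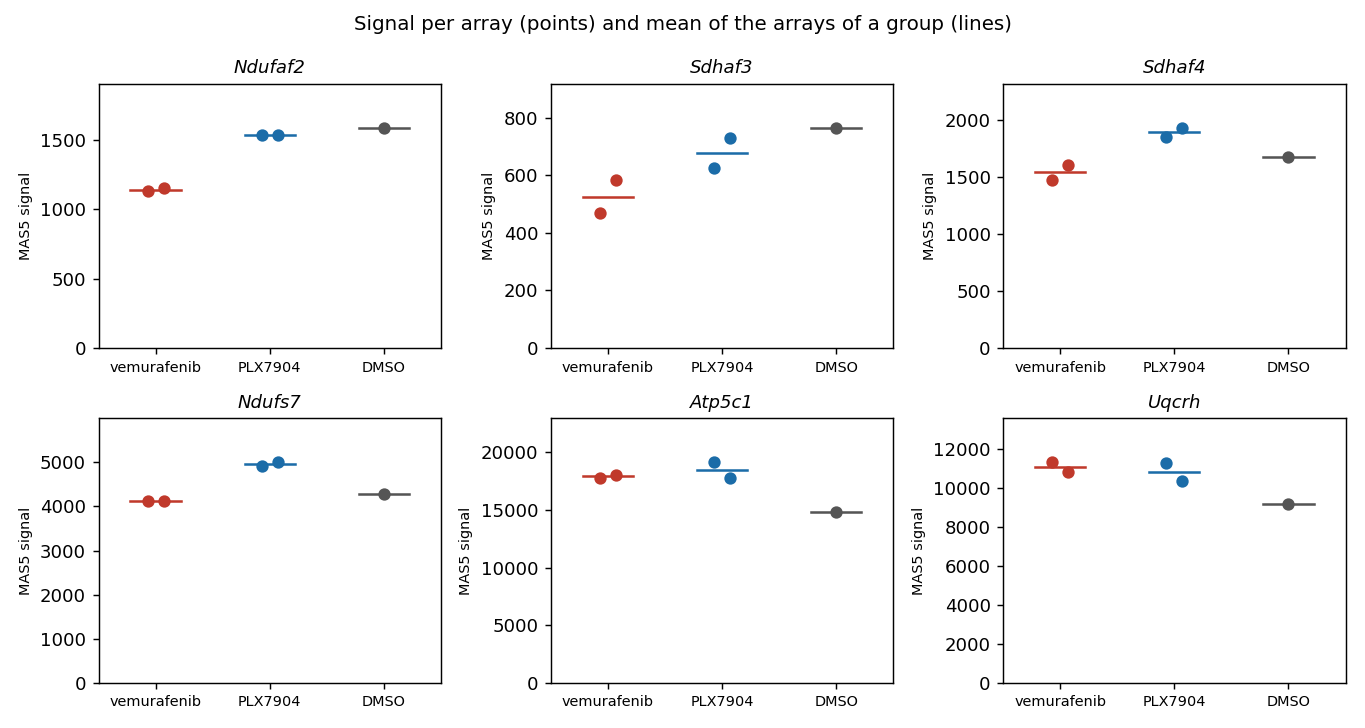
MAS5 signal (y axis, linear from 0) of 6 members in the 2 vemurafenib arrays, the 2 PLX7904 arrays and the DMSO array (points), with the mean of each group as a line. Ndufaf2, Sdhaf3 and Sdhaf4 are assembly factors, Ndufs7 is of complex I, Atp5c1 of complex V and Uqcrh of complex III; for Ndufaf2 the vemurafenib arrays stand at 1130.2 and 1151.2 and the other 3 arrays above 1500.

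The 3 genes for the c subunit, the proton-carrying ring of ATP synthase, encode the same mature protein and were read apart. Atp5g3 had 20528 and 20682 in vemurafenib, 21123 and 19614 in PLX7904 and 17722 in DMSO. Atp5g1 had 6015.9 and 5404.8 in vemurafenib, 6964.5 and 5853.5 in PLX7904 and 5816.4 in DMSO, and Atp5g2 had 6916.6 and 6930.4 in vemurafenib, 7947.5 and 7455.8 in PLX7904 and 7460.0 in DMSO. Thus Atp5g3 was above DMSO on all treated arrays (0.22 ± 0.07 SE in vemurafenib against DMSO, adjusted p 0.0644 by limma), Atp5g2 was below it on both vemurafenib arrays (-0.11 ± 0.08 SE, adjusted p 0.414), and Atp5g1 overlapped it. None of the 3 was called. Atp5o, the stalk subunit known as OSCP, had a single low array on the probe set used: 10250 and 10466 in vemurafenib, 7601.6 and 10311 in PLX7904 and 10487 in DMSO. Its log2 difference between the compounds, 0.23 ± 0.11 SE with an adjusted p of 0.227 by limma, was 0.45 (adjusted p 0.0029) when PLX7904 replicate 2 was left out and the low array stood alone, and 0.01 (adjusted p 0.957) without PLX7904 replicate 1. A second Atp5o probe set read 3323.1 and 3247.5 in vemurafenib, 3034.2 and 4009 in PLX7904 and 3981.6 in DMSO. It gave -0.28 in vemurafenib against DMSO and, with the sign reversed, -0.09 between the compounds. The remaining members ranged from -0.11 (Atp5mpl) to 0.16 (Atp5d) in vemurafenib against DMSO.

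Among the assembly factors Ndufaf2, which acts late in building complex I, had signals of 1130.2 and 1151.2 in vemurafenib, 1536.3 and 1538.2 in PLX7904 and 1588.4 in DMSO. The vemurafenib arrays lay below all others. Ndufaf2 fell 1.39-fold in vemurafenib against DMSO (log2 difference -0.48 ± 0.10 SE, adjusted p 0.0161 by limma) and 1.35-fold in vemurafenib against PLX7904 (-0.43 ± 0.08 SE, adjusted p 0.00814). In PLX7904 against DMSO it differed by -0.05 (95% interval -0.28 to 0.18, adjusted p 0.977). It was called in 14 of 16 alternative settings in the contrast with DMSO and in 16 of 17 between the compounds. The misses were eBayes without an intensity trend (adjusted p 0.118 against DMSO and 0.0817 between the compounds) and, against DMSO, leaving out vemurafenib replicate 1 (0.0541). No other probe set names this gene alone.

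Sdhaf4, a factor that helps the flavoprotein of complex II into its complex, read 1468.5 and 1606.1 in vemurafenib, 1845.1 and 1928.7 in PLX7904 and 1675.5 in DMSO. The vemurafenib arrays were lowest, DMSO intermediate and PLX7904 highest. It was called lower in vemurafenib against PLX7904 (-0.30 ± 0.09 SE, 1.23-fold, adjusted p 0.0468 by limma), in 7 of 17 alternative settings. The adjusted p was 0.337 without vemurafenib replicate 1, 0.067 without vemurafenib replicate 2, 0.0607 without PLX7904 replicate 1 and 0.126 without PLX7904 replicate 2. Sdhaf3, which acts on the iron-sulphur subunit of complex II, had 468.0 and 583.0 in vemurafenib, 624.0 and 727.7 in PLX7904 and 764.6 in DMSO. Its vemurafenib arrays were the lowest and DMSO the highest, with a log2 difference of -0.55 ± 0.16 SE in vemurafenib against DMSO that was not called (adjusted p 0.0593 by limma). It passed in 5 of 16 alternative settings, with an adjusted p of 0.0077 without vemurafenib replicate 2, 0.0499 without PLX7904 replicate 1 and 0.215 without vemurafenib replicate 1. Sdhaf2, which serves the attachment of flavin to Sdha, lay the other way, with 3064.0 and 2936.4 in vemurafenib, 2781.3 and 2521.7 in PLX7904 and 2529.4 in DMSO (0.25 ± 0.10 SE in vemurafenib against DMSO, adjusted p 0.143).

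**Figure D4:**
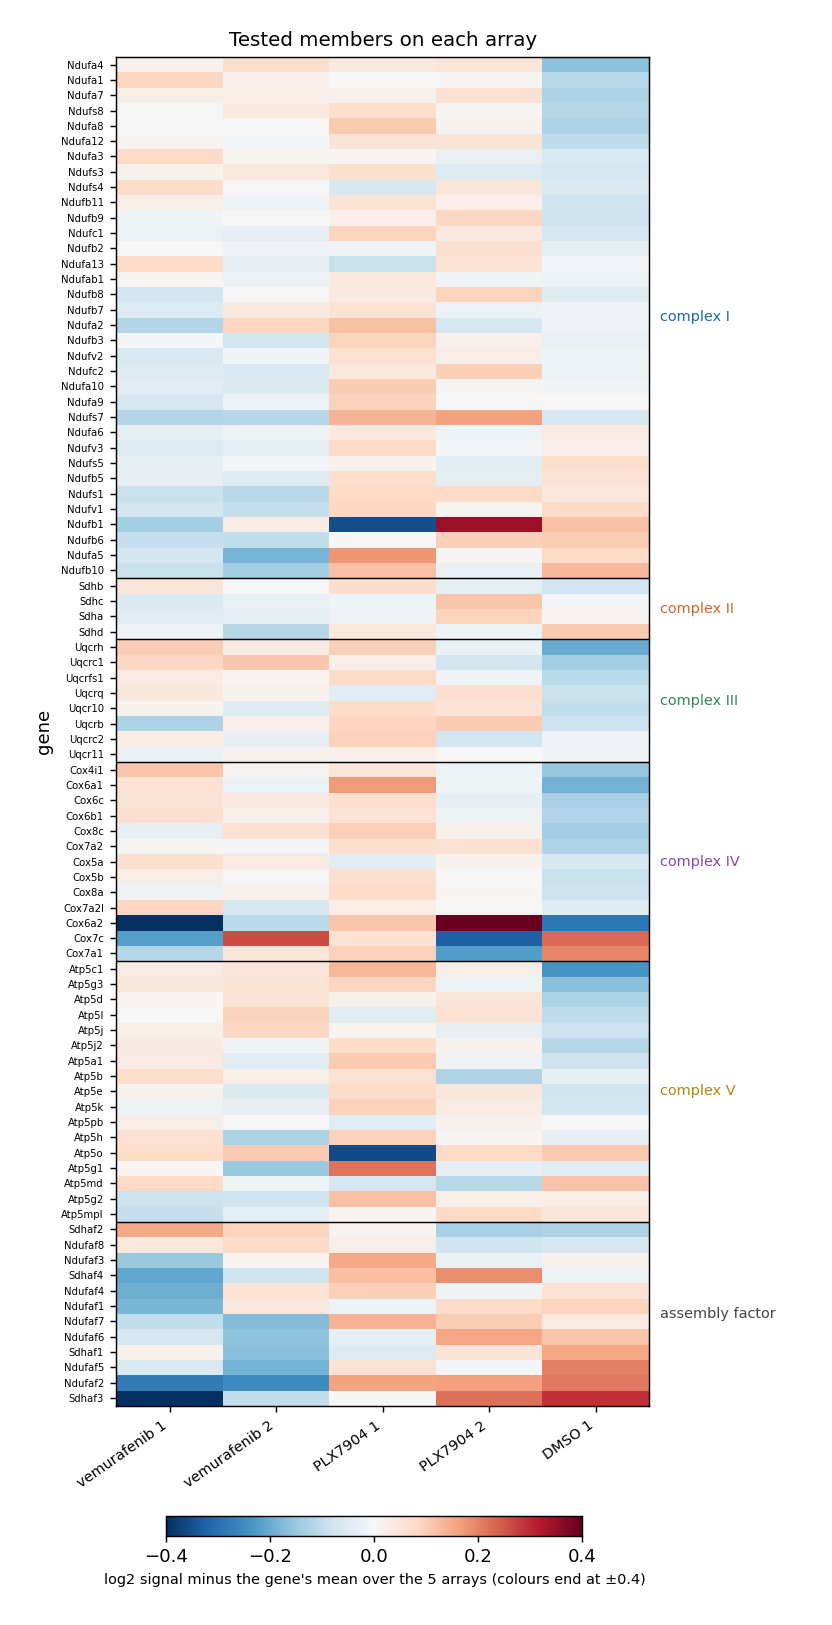
Log2 signal of each of the 88 tested genes (rows, by class and then by vemurafenib minus DMSO) on the 5 arrays (columns), as the difference from the gene's mean over the arrays; red is higher, blue lower, and colours end at ±0.4. The DMSO column is blue for most genes at the top of complexes III, IV and V, and the vemurafenib columns are blue for most assembly factors.

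In PLX7904 against DMSO no member was called, and neither was any of the 10853 genes (0%). At an unadjusted p under 0.05 there were 14 higher and 1 lower among the members and 389 higher and 333 lower among all genes. Both PLX7904 arrays were above DMSO for 52 of the 88 members and below it for 13, where 30.8% and 35.7% of all tested genes were. In the brightest 10% of signal 61% of all genes were above and 13.1% below, beside 74.6% and 6.78% of the 59 members there. The median over members was 0.07, beside -0.01 over all genes, and 0.11 beside 0.07 within the brightest 10% of genes. Under quantile normalization 42 members were above and 20 below, beside 33.4% and 31.8% of all genes. By class, complex III had 7 of 8 genes above and complex IV 11 of 13 above (medians 0.13 and 0.14), and the assembly factors had 2 of 12 above and 5 below (median -0.03). The medians of complexes III and IV were 0.05 and 0.03 under quantile normalization, and 0.06 and 0.04 under cyclic loess. With 1 DMSO array these contrasts have no check of the control's own spread.

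The direct comparison of the compounds at the same dose and time, the only pair available, does not use the DMSO array. In it 3 members were called lower, Ndufaf2, Ndufs7 and Sdhaf4, and 0 higher, where 6.86% of all tested genes were called lower and 6.43% higher. Among all genes in the brightest 10% of signal 6.72% were called lower and 13% higher, beside 0 and 0 of the 59 members there. In all, 13.3% of genes were called in this contrast, against 10.6% in vemurafenib against DMSO. The median over members was -0.04 beside -0.04 over all genes as deposited, -0.08 beside -0.02 under quantile normalization and -0.08 beside -0.01 under cyclic loess. Both vemurafenib arrays were above both PLX7904 arrays for 8 members and below for 33 (9.09% and 37.5%), where 23.8% and 32.2% of all genes were, and for 3 and 51 under quantile normalization (all genes 25.6% and 29.8%). As deposited, 32.6% of all genes in the brightest 10% of signal were wholly higher and 27.5% wholly lower, beside 10.2% and 30.5% of the 59 members there. Of the 88 members 26 lay above the median of genes of like signal. For 83 of 88 members (94.3%) the 95% interval lay within 1.5-fold, against 64.0% of all genes. In the brightest 10% of signal it did for 94.9% of all genes and for 59 of 59 members (100%). The assembly factors had a median of -0.14 with 6 of 12 wholly lower and 2 wholly higher, beside 32.2% and 23.8% of all genes. Complex III had a median of -0.01, complex IV 0.00 and complex V -0.03.

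Promoter windows of the called members are given because their genes differed between groups, and those of Uqcr11 and Sdhd for contrast, since they hold the motifs searched. The windows are RefSeq's for GRCm38.p6, from 250 bases before to 50 after a start, 5′ to 3′ on the gene's strand, and capitals mark motif matches. Ndufaf2 is at chr13:108158576-108158875 (minus strand), Ndufs7 at chr10:80249199-80249498 (plus), Sdhaf4 at chr1:24005591-24005890 (minus), Atp5c1 at chr2:10080383-10080682 (minus; 1 of its 2 windows, neither with a match), Uqcr11 at chr10:80406772-80407071 (minus) and Sdhd at chr9:50603800-50604099 (minus).
Ndufaf2: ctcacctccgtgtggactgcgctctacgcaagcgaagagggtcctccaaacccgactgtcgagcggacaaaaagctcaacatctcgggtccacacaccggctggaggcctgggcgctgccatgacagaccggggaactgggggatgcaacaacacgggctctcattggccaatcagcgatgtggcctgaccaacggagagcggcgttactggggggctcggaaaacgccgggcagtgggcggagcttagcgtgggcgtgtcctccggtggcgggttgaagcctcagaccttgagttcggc
Sdhaf4: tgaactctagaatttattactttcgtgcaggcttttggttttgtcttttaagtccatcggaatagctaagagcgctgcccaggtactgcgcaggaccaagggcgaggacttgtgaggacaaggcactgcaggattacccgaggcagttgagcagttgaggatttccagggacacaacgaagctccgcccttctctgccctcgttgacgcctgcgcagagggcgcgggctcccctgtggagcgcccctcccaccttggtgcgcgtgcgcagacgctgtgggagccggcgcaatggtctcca
Ndufs7: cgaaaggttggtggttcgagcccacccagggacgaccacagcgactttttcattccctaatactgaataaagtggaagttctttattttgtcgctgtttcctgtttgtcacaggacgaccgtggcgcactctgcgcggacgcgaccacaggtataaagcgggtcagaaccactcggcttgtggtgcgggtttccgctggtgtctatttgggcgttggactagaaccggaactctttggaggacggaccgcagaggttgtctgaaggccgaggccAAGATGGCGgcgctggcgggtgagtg
Atp5c1: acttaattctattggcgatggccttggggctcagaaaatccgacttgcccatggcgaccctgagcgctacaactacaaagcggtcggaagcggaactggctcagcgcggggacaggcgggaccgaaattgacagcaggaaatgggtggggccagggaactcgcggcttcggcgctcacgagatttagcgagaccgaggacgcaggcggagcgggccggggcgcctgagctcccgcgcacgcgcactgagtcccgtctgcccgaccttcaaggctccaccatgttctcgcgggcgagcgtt
Uqcr11: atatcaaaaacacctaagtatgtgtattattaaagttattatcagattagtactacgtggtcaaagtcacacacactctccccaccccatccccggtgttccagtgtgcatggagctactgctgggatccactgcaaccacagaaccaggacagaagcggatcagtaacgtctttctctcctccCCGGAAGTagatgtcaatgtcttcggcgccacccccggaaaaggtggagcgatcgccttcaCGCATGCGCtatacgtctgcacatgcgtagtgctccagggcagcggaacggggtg
Sdhd: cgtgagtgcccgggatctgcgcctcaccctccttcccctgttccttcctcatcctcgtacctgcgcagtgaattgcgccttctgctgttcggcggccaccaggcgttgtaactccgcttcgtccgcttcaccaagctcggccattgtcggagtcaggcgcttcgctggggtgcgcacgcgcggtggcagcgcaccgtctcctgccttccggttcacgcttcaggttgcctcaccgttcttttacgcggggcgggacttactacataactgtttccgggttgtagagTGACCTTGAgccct

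Exact matches were sought on both strands for NRF1 (GCGCATGCG), GABP and other ETS factors (CCGGAAGT), YY1 (AAGATGGCG) and the oestrogen-related receptors (TCAAGGTCA), which do not overlap one another in the windows shown. Windows were found for 78 of the 94 members, 83 in all. The NRF1 letters were in 10.8% of the members' windows, against 1.75% of the 32851 windows of the whole table. The YY1 letters were in 8.43% against 1.4%, the ETS letters in 6.02% against 3.89% and the receptor letters in 2.41% against 0.423%. Of the called members Ndufs7 holds the YY1 letters, at base 275 of its window, and the windows of Ndufaf2, Sdhaf4 and Atp5c1 shown hold none of the 4. Uqcr11 holds the ETS letters and, reversed, the NRF1 letters, and Sdhd the reversed receptor letters. In vemurafenib against DMSO the 9 tested members with NRF1 letters had a median log2 difference of 0.05 and the 65 without of 0.01, and the 7 with YY1 letters 0.09 and the 67 without 0.01. A match is a run of letters and was not examined for binding.

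Genes that serve the chain without being its subunits were read from 7 further lists. Their counts of calls stand beside 5.44% higher and 5.21% lower over all genes in vemurafenib against DMSO, and 6.43% higher and 6.86% lower in vemurafenib against PLX7904. Of 33 further tested assembly genes 2 were called lower in vemurafenib against DMSO and the same number in vemurafenib against PLX7904, none higher, with a list median of -0.10 against DMSO. Cox15, which makes heme a for complex IV, read 453.9 and 406.9 in vemurafenib, 590.4 and 771.4 in PLX7904 and 971.8 in DMSO. Its vemurafenib arrays were lowest and DMSO highest, and Cox15 fell 2.25-fold in vemurafenib against DMSO (log2 difference -1.17 ± 0.17 SE, adjusted p 0.00221 by limma) and 1.57-fold against PLX7904 (-0.65 ± 0.14 SE, adjusted p 0.0124). Averaging all its probe sets gave -0.50 against DMSO (adjusted p 0.141) and -0.28 between the compounds (0.274), and without PLX7904 replicate 2 the difference between the compounds missed the threshold (-0.46, adjusted p 0.0682). Bcs1l, which places the Rieske protein in complex III, read 609.5 and 547.9 in vemurafenib, 893.5 and 828.1 in PLX7904 and 898.6 in DMSO. It fell 1.55-fold in vemurafenib against DMSO (adjusted p 0.0125) and 1.49-fold against PLX7904 (adjusted p 0.00632), and missed the threshold only under eBayes without a trend (0.115 and 0.0797) among the settings run.

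Of 15 tested biogenesis genes 1 was called higher and 2 lower in vemurafenib against DMSO. Ppargc1b, the coactivator PGC-1beta, had 87.4 and 77.96 in vemurafenib, 140.2 and 197.2 in PLX7904 and 173.9 in DMSO. It fell against DMSO (-1.05 ± 0.30 SE, adjusted p 0.0497 by limma) and against PLX7904 (-0.98 ± 0.24 SE, adjusted p 0.0238), on dim signals. The call passed in 8 of 15 alternative settings against DMSO and in 12 of 16 between the compounds. It was lost without vemurafenib replicate 2 against DMSO (0.0558) and without PLX7904 replicate 2 between the compounds (0.15). Tfb1m, a methyltransferase of mitochondrial ribosomal RNA, was lower against DMSO (-0.59, adjusted p 0.0373; 0.0741 without vemurafenib replicate 1 and 0.064 without vemurafenib replicate 2), and passed in 5 of 15 alternative settings. Ssbp1, which binds single-stranded mitochondrial DNA, was higher (0.31, adjusted p 0.0254), but the mean of its probe sets gave -0.26, and without vemurafenib replicate 2 the adjusted p was 0.147.

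At the entry to the citric acid cycle, 1 of 19 tested genes was called higher and 1 lower against DMSO. Pdk1, the kinase that switches off pyruvate dehydrogenase, had 1694.2 and 1653.1 in vemurafenib, 1909.9 and 2354.3 in PLX7904 and 2745.8 in DMSO, and Pdp1, the phosphatase that switches it on, 856.4 and 779.0 in vemurafenib, 523.2 and 701.5 in PLX7904 and 491.9 in DMSO. Pdk1 fell (-0.71 ± 0.12 SE, adjusted p 0.00591 by limma) and Pdp1 rose (0.73 ± 0.17 SE, adjusted p 0.024) in vemurafenib against DMSO. Neither was called between the compounds (adjusted p 0.0521 and 0.0725). Of 15 tested carrier and coenzyme Q genes 1, Coq10b, was called higher in vemurafenib against DMSO (0.70, adjusted p 0.0125) and against PLX7904 (0.58, adjusted p 0.00889). Coq2 and Etfb were called lower in vemurafenib against PLX7904 (-0.28 and -0.35), each lost on leaving out any treated array (adjusted p up to 0.303).

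Of 14 tested glycolysis genes 2 were called higher in vemurafenib against DMSO and the same count between the compounds, none lower (list median 0.15 against DMSO). Hk2, hexokinase 2, had 2825.6 and 3032.6 in vemurafenib, 2212.6 and 2227.4 in PLX7904 and 2228.0 in DMSO. Hk2 rose against DMSO (0.39 ± 0.09 SE, adjusted p 0.025 by limma) and against PLX7904 (0.40 ± 0.08 SE, adjusted p 0.00769). Without vemurafenib replicate 2 the adjusted p was 0.13 against DMSO and 0.0597 between the compounds. Aldoa, aldolase A, had 9209.2 and 9116.6 in vemurafenib, 7552.0 and 7118.8 in PLX7904 and 7595.2 in DMSO. It rose in vemurafenib against PLX7904 (0.32, adjusted p 0.00697) and against DMSO (0.27, adjusted p 0.0446; 0.177 without vemurafenib replicate 1 and 0.127 without vemurafenib replicate 2). Of 76 tested mitochondrial ribosomal protein genes 1, Mrpl20, was called higher against DMSO (0.37, adjusted p 0.0267), and 5 lower in vemurafenib against PLX7904 (Mrpl14, Mrpl36, Mrpl51, Mrps12 and Mrps17), with differences between -0.31 and -0.25. For the ribosomal proteins this is 6.58% called lower, near the 6.86% of all genes. None of the 6 tested genes of ADP and phosphate transport was called.

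Some members were read with less certainty. The single-symbol probe set of Ndufb4 was below the filter, while 2 bright probe sets shared with near-identical copies had signals between 4773.1 and 5916.0 and were not used. Another 8 symbols of the same families had only probe sets shared with other genes. For 49 members a further probe set was past the filter, 79 in all. Its sign matched that of the one used in 57 of 79 in vemurafenib against DMSO, in 56 in PLX7904 against DMSO and in 55 in vemurafenib against PLX7904. The median gap between them was 0.11, 0.07 and 0.06 on the log2 scale in these 3 contrasts.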

How the data were processed

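Biotin-labelled RNA of 5 cultures was read on Affymetrix 3' expression arrays of 45101 probe sets. The deposited values are intensity on a linear scale, made by the authors with MAS5, per the submitters' processing notes (version not given in the sources used here). Each array's mean over its middle 96% of values is 500. Such scaling does not remove signal-dependent differences among arrays.

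Probe sets with 1 gene symbol were used (34958; 932 had several and 9211 none). The log2 of signal plus 3.34, the 10th percentile of all values, was fitted with limma 3.58.1 in R 4.3.3 (3 group means, eBayes with intensity trend, 2 residual and 8.28 prior degrees of freedom). Genes with a mean of at least 47.4 were tested, two-sided, with Benjamini-Hochberg adjustment within a contrast. The number of arrays limits the precision. The fit was tested on simulated data. Promoter windows were searched and figures drawn with Python 3.11.15 and matplotlib 3.10.9.

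Members and related gene lists were chosen with earlier results of these data known. Lists are described by counts and medians, with no set test. Named genes were every called member, the extremes of each class, the complex II subunits, tissue paralogues and called genes of the related lists. Near-threshold members and others named for their role were chosen after their values were seen. Alternatives covered pseudocount, filter, normalization, eBayes settings, choice of probe sets, a replicate block, a fit to treated arrays and leaving out each treated array.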

Additional observations from a re-analysis of the deposited data

How the results depend on the processing

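With 1 DMSO array and 2 residual degrees of freedom, counts of called members depended on the settings, and dim probe sets set the limits. The cause of the changes was not tested. Of 1261 values recomputed, 976 were classed as unchanged. For single genes this meant the same direction and side of the threshold, and for medians a move smaller than the spread between replicates. Counts of called members were classed so when within 1.5-fold of the main count. The share of all tested genes called moved too. In vemurafenib against DMSO it was 10.6% in the main fit, 3.61% without the filter and 16.2% with the filter at the 75th percentile. It was 9.49% under cyclic loess, 11.4% under median centring, 4.08% with the mean of all probe sets and 0.396% without the eBayes trend. Without suffixed probe sets and with the replicate block it was 11.2%. Between the compounds it was 13.3% in the main fit and 0.322% without the trend. The 2 members called in vemurafenib against DMSO became 1 without the filter, under cyclic loess and with the mean of all probe sets, 4 with the filter at the 75th percentile, 10 under median centring, 6 without probe sets of suffix x, s or a, 0 without the eBayes trend, and 0 to 10 on leaving out a treated array. The 3 between the compounds became 0 without the trend and 1 to 2 on leaving out an array, and in PLX7904 against DMSO the count was 0 in every setting. Over the tested genes, deviations of same-numbered vemurafenib and PLX7904 arrays had a correlation of r = -0.0071. With 2 arrays per group this cannot settle whether same-numbered cultures were paired. With the replicate block 7 members were called in vemurafenib against DMSO, 0 in PLX7904 against DMSO and 4 between the compounds.

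The median over members in vemurafenib against DMSO was -0.0505 under quantile normalization, 0.0812 under median centring, -0.0545 under cyclic loess, -0.0027 with the mean of all probe sets, -0.006 without suffixed probe sets and 0.0138 to 0.0401 on leaving out an array. In PLX7904 against DMSO it was 0.0327, 0.0989 and 0.0336 under the same 3 scalings, 0.0508 with the mean of all probe sets and 0.0575 to 0.0987 on leaving out an array. Between the compounds it was -0.0811, -0.0083 and -0.0757 under the scalings and -0.0636 to -0.0267 on leaving out an array.

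Reversals were these. With the mean of all probe sets Atp5c1 gave -0.0939 (vemurafenib against DMSO), -0.131 (PLX7904 against DMSO) and 0.0371 (between the compounds), and without suffixed probe sets -0.4643, -0.5786 and 0.1143; between the compounds it gave -0.0945 to 0.0144 on leaving out an array. Uqcr11 against DMSO gave -0.0851 under quantile normalization, -0.0843 under cyclic loess and -0.0138 to 0.025 on leaving out an array, Ndufs7 0.0139 under median centring, and Ssbp1 -0.2591 with the mean of all probe sets. Between the compounds Ndufa3 gave -0.0033 under quantile normalization, -0.0632 with the mean and -0.0221 without suffixed probe sets. Sdhb gave -0.0236 and -0.0168 under quantile normalization and cyclic loess and -0.0461 to 0.0593 on leaving out an array, Uqcrb 0.0668 without suffixed probe sets, Cox7c -0.085 to 0.3936 on leaving out an array, and Atp5g1 0.1109 with the mean.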
